A study of Drosophila melanogaster with 2 samples.

Results

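The genes described here encode the recognition proteins and the intracellular components of the humoral immune response of Drosophila: peptidoglycan recognition proteins (PGRPs), Gram-negative binding proteins (GNBPs), thioester proteins (Teps), and members of the Toll and immune deficiency (Imd) pathways, with the iron carrier Tsf1. They were chosen by name as a list of 32 genes. All 32 were found among the 13136 genes on the arrays, through 35 of 14593 distinct probes, each printed once.

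RNA of whole female larvae of the final instar was compared on 2 two-colour oligonucleotide arrays. In the ablated larvae (rnGAL4,UASegr,tubGAL80[ts]/+) the rotund driver rnGAL4 drove eiger, the fly's tumour necrosis factor and an inducer of apoptosis, in the wing imaginal discs, from which the wings form. The control larvae (TM6,Tb[1],tubGAL80) carried no driver or eiger transgene, but a balancer chromosome with the Tubby marker. Both groups carried a GAL80 transgene and were kept for 24 h at 30 °C, and the array titles give day 6. On each array an ablated and a control RNA competed. The ablated RNA was labelled with Cy5 on replicate 1 and with Cy3 on replicate 2. Whether the replicates are separate cultures is not in the labels, so each p here covers just the spread between the arrays, which may be technical. Because whole larvae were used, fewer cells of a type and less RNA per cell cannot be told apart.

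In flies, invading microbes are sensed mainly through their cell walls. Lysine-type peptidoglycan and fungal glucans are bound by circulating PGRPs and GNBPs, which start a protease cascade that ends in the cleavage of Spätzle, the ligand of the receptor Toll. Toll signalling degrades the inhibitor Cactus and frees the NF-kappaB factors Dorsal and Dif. Diaminopimelic-acid-type peptidoglycan is bound by PGRP-LC at the cell surface and PGRP-LE, which act through Imd and the IKK complex on the NF-kappaB factor Relish. The main outputs are antimicrobial peptides from the fat body, and amidase PGRPs that digest peptidoglycan and dampen the response.

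Of the 32 genes, 16 had a probe above local background in at least 1 of the 4 channels, which are 2 dyes on each of 2 arrays. Of all 13136 genes on the arrays, 5971 did so. The threshold was a spot median more than 2 SD of the background pixels over the local background median. In ablated larvae 11 of these 16 genes were above background on replicate 1 and 7 on replicate 2, and in control larvae 8 and 10. Of all gene spots, 38.1% and 17.6% were above background in ablated larvae on replicates 1 and 2, and 26.9% and 15.0% in control larvae. A single gene of the list, PGRP-SC1a, was above background in all 4 channels, against 1238 of all genes. The 16 other genes had 17 probes, whose spot medians lay between 0.300 and 3.16 times the local background, with a median of 0.921, so these data give no difference for them. They were PGRP-SB2, PGRP-SC1b, PGRP-SD, PGRP-LA, PGRP-LE, PGRP-LF, GNBP1, GNBP2, GNBP3, Tep1, Tep2, Tep3, nec, SPE, dl and Dif. By role, the genes not above background were 4 of 5 secreted sensors of the Toll side, 3 of 4 receptors or modulators of the Imd side, 3 of 4 thioester proteins, 4 of 7 genes of the Toll branch, 2 of 6 amidases and 0 of 5 genes of the Imd branch.

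**Figure D1:**
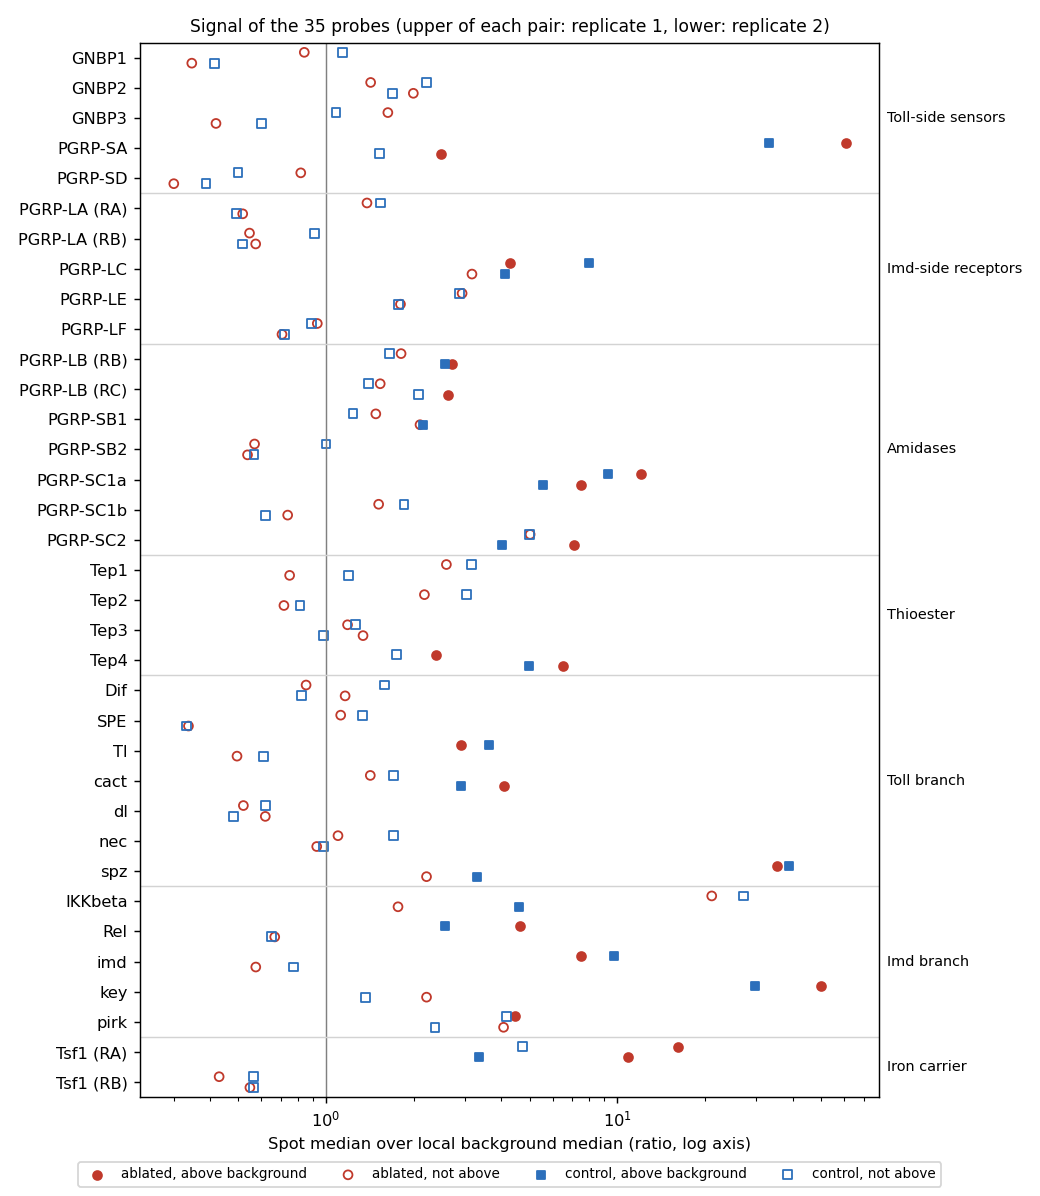
Spot median divided by local background median (log axis) of the 35 probes in ablated larvae (circles) and control larvae (squares). The upper marks of each row are replicate 1 and the lower marks replicate 2; filled marks are above background by 2 SD. The probes of PGRP-SA, spz and key lie far right on replicate 1 and close to the background on replicate 2.

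Values below are log2 ratios of ablated to control larvae after background correction (normexp) and intensity-dependent (loess) normalization within each array. Where 2 ratios are given for a gene, the first is replicate 1 and the second replicate 2. The ratios were tested with limma against 0 over the 5971 genes above background in any channel, with Benjamini-Hochberg adjustment. None of the 16 tested immune genes was called at an adjusted p of 0.05, and neither was any other gene (0 of 5971, 0%). The lowest adjusted p of any gene was 0.996. Unadjusted p values under 0.05 were found for 145 of the 5971 genes. Of the 16 immune genes 3 had one: spz, IKKbeta and PGRP-LC. The median of the 16 was -0.0221, against 0.00809 for all tested genes. They are therefore described by their values, without calls.

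Of the 16 genes, 5 were lower in ablated larvae on both arrays, against 22.5% of all tested genes, and 4 were higher on both arrays, against 24.4% of all tested genes. The 5 lower genes were spz, PGRP-LC, imd, Tl and IKKbeta, which are a ligand, both receptors, an adaptor and a kinase of the 2 pathways. The 4 higher genes were Tsf1, key, Rel and PGRP-SC2. No gene of either set was above background in all 4 channels. Neither ablated nor control larvae were above background for imd, Tl, key and Rel on replicate 2, or for IKKbeta and PGRP-SC2 on replicate 1. For these genes the sign on that array is not a measured difference. The other 7 differed in sign between the arrays, against 53.1% of all tested genes.

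Which of the 2 signs is right for a single gene was not settled by these arrays. Between the dye-swapped arrays the ratios of the 5971 tested genes correlated negatively (Pearson's r = -0.53, Spearman's rho = -0.23, across genes, which are not independent replicates). The means were therefore also computed with the sign of replicate 2 turned, which is the same as averaging Cy5 over Cy3. Read this way, 514 genes were called (8.61% of those tested), and 0 of the 16 immune genes were among them. With the sign turned, 3 of the 16 were higher on both arrays, against 26.9% of all tested genes, and 4 were lower, against 26.1%. A dye bias and a dye recorded the wrong way round on 1 array cannot be told apart here. If it was the record of replicate 2, the turned means would be those of ablated over control larvae; if that of replicate 1, the same with the opposite sign.

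**Figure D2:**
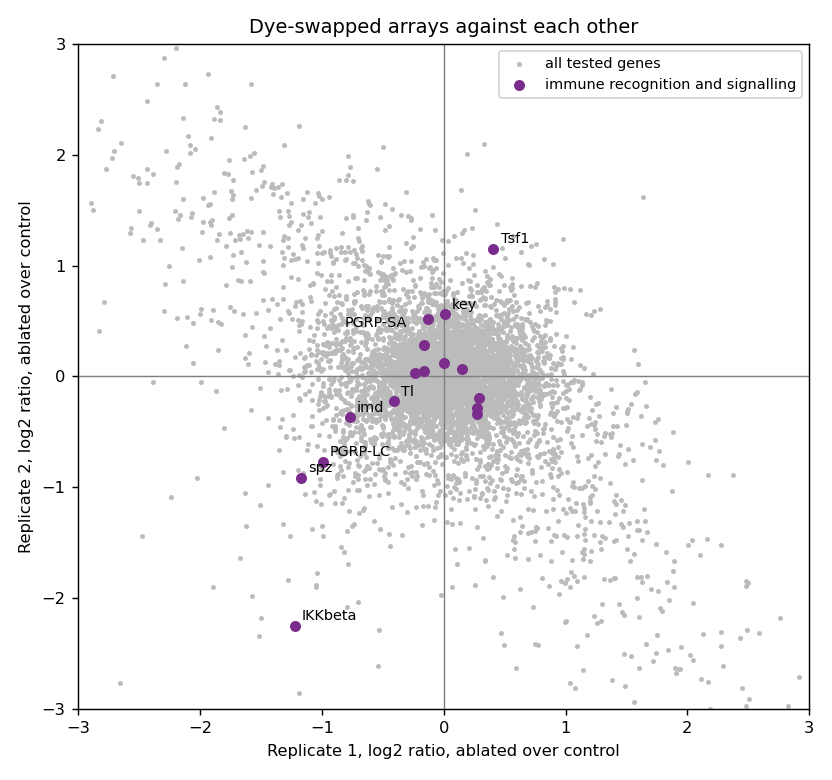
Log2 ratio of ablated to control larvae on replicate 1 (horizontal) and replicate 2 (vertical) for all tested genes (grey) and the 16 immune genes (purple). Most grey points far from 0 lie in the upper left and lower right quadrants, and spz, PGRP-LC, imd, Tl and IKKbeta lie in the lower left; 56 genes lie beyond the axes.

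On the recognition side of the Toll branch, PGRP-SA, the circulating receptor of lysine-type peptidoglycan, was the sole sensor above background. The spot median on replicate 1 was 6252 in ablated larvae (local background 103) and 4288 in control larvae (local background 129). On replicate 2 it was 988 in ablated larvae (local background 397) and 929 in control larvae (local background 607). The arrays disagreed after normalization, with -0.13 on replicate 1 and 0.51 on replicate 2, a mean of 0.19 ± 0.46 (SD, n = 2). With the sign of replicate 2 turned the mean was -0.32. PGRP-SD, a further secreted receptor, and GNBP1, which acts together with PGRP-SA, did not exceed background in any channel, nor did the glucan sensor GNBP3.

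Next in the Toll branch, spz, which encodes the Toll ligand, read lower in ablated larvae on both arrays. On replicate 1 its spot median was 3660 in ablated larvae (local background 104) and 5265 in control larvae (local background 136). On replicate 2 it was 427 in ablated larvae (local background 193) and 817 in control larvae (local background 248). The control larvae were thus the brighter channel under either dye. The normalized log2 ratios were -1.17 and -0.91, a mean of -1.04 ± 0.18 (SD, n = 2; unadjusted p = 0.0189, limma adjusted p = 0.996), or 0.485 of the control level. With the sign of replicate 2 turned the mean was -0.13. The control larvae passed the background threshold on both arrays and the ablated larvae on replicate 1 alone.

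The receptor gene Tl also read lower on both arrays, by less. The Tl spot on replicate 1 had a median of 1223 in ablated larvae (local background 420) and 996 in control larvae (local background 274), so before normalization the ablated channel was the brighter one. On replicate 2 it was 144 in ablated larvae (local background 291) and 203 in control larvae (local background 332), so neither group had signal there. The normalized ratios were -0.41 and -0.22, a mean of -0.32 ± 0.13 (SD, n = 2). The sign on replicate 1 thus came with the normalization. With median centring in place of loess the mean over both arrays was -0.19. The inhibitor cact, which holds the NF-kappaB factors in the cytoplasm, was near 0, at -0.16 and 0.0505 (mean -0.0553 ± 0.15). On replicate 2, the array where it was above background, its signal after subtraction of the local background was 480 in ablated larvae and 418 in control larvae.

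Of the Toll branch, the processing enzyme of Spätzle, SPE, the serpin nec, which restrains the upstream proteases, and the NF-kappaB genes dl and Dif had no signal above background. The ligand thus had a lower reading in ablated larvae without a measured value for the enzyme that cleaves it or for the transcription factors downstream.

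In the Imd branch, PGRP-LC, the surface receptor of diaminopimelic-acid-type peptidoglycan, read lower in ablated larvae on both arrays. Its spot median on replicate 1 was 663 in ablated larvae (local background 155) and 913 in control larvae (local background 114). On replicate 2 it was 301 in ablated larvae (local background 95) and 599 in control larvae (local background 146). As for spz, the control channel was the brighter one under either dye. The ratios were -0.99 and -0.77, a mean of -0.88 ± 0.16 (SD, n = 2; unadjusted p = 0.0271, limma adjusted p = 0.996), or 0.542 of the control level. It averaged -0.11 with the sign of replicate 2 turned. The ablated larvae were above background on 1 array and the control larvae on both. Its genomic neighbours PGRP-LA and PGRP-LF, the second of which is a decoy that restrains PGRP-LC, and the cytosolic sensor PGRP-LE were not above background.

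The adaptor imd, which couples PGRP-LC to the kinases, gave -0.77 and -0.37, a mean of -0.57 ± 0.28 (SD, n = 2). Its spot median on replicate 1 was 1168 in ablated larvae (local background 156) and 1313 in control larvae (local background 135). On replicate 2 the spot median minus the local background was -167 in ablated larvae and -117 in control larvae. Only replicate 1 therefore measured imd.

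IKKbeta, the catalytic kinase subunit that activates Relish, had the lowest mean of the 16, at -1.74 ± 0.73 (SD, n = 2; unadjusted p = 0.0232, limma adjusted p = 0.996). Its ratios were -1.22 on replicate 1 and -2.25 on replicate 2. On replicate 1 the spot median was 3098 in ablated larvae (local background 147, 21.1 times) and 4604 in control larvae (local background 170, 27.1 times). The background pixels there had SDs of 10567 in ablated larvae and 13754 in control larvae, so neither channel passed the 2 SD rule. On replicate 2 the spot median was 1035 in ablated larvae (local background 586) and 3389 in control larvae (local background 737), and the control larvae alone were above background. By a rule on the background median alone (at least 2 times), the ablated larvae passed on 1 array and the control larvae on both. The fitted difference, 3.33-fold higher in control larvae, thus rests on 4 channels of which 1 passed the 2 SD rule. With the sign of replicate 2 turned the mean was 0.51.

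The regulatory subunit of the same complex, key, did not share this reading. Its ratios were 0.0095 and 0.56, a mean of 0.29 ± 0.39 (SD, n = 2), and its spot median on replicate 1 was 7035 in ablated larvae and 4367 in control larvae. Here too only replicate 1 was above background, and the higher mean came from replicate 2. Rel, the NF-kappaB factor of the branch, stood at 0.15 and 0.0668 (mean 0.11 ± 0.0562), with spot medians of 277 in ablated larvae and 225 in control larvae on replicate 1. On replicate 2 both of its channels lay below the local background. The inhibitor pirk, which binds PGRP-LC and Imd, read -0.16 and 0.29 (mean 0.0615 ± 0.32) and was above background in 1 channel, that of ablated larvae on replicate 1. By the sign of the ratio, 2 of the 5 intracellular Imd genes read lower on both arrays, 2 higher and 1 in opposite directions. No gene among these 5 was above background in both groups on both arrays, so the count rests partly on ratios without signal.

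**Figure D3:**
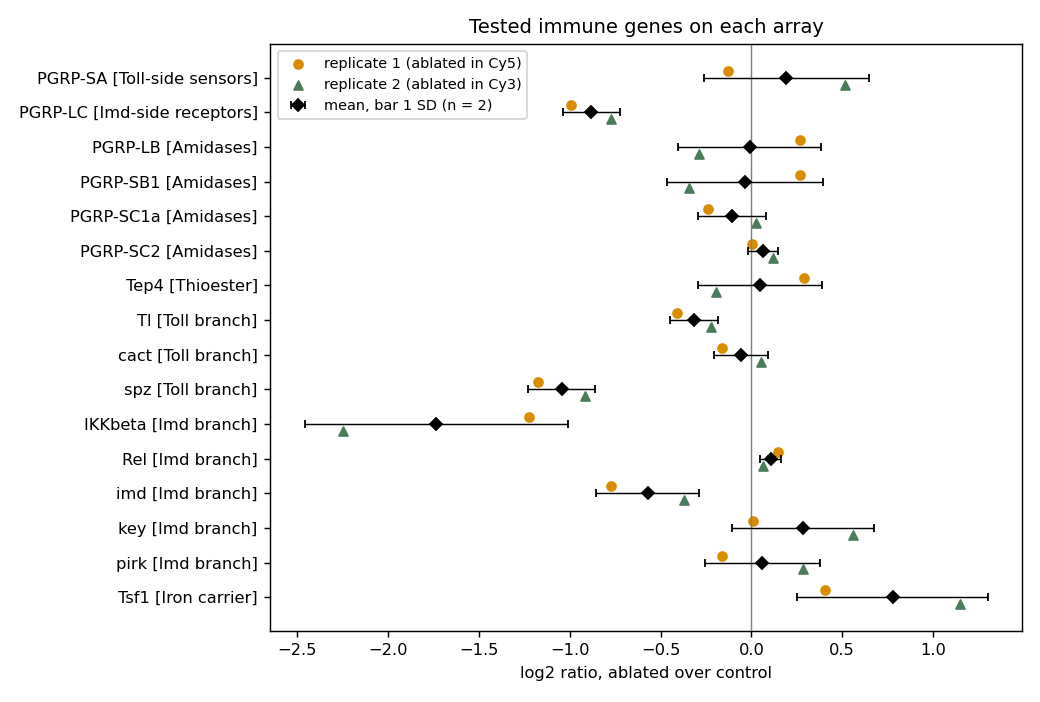
Log2 ratio of ablated to control larvae of the 16 tested genes on replicate 1 (circles) and replicate 2 (triangles), with the mean and 1 SD (diamonds and bars, n = 2). The mean of IKKbeta is lowest at -1.74, followed by spz and PGRP-LC, and that of Tsf1 is highest at 0.78; the 4 amidases lie around 0.

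The amidases, secreted or membrane-associated enzymes that cleave peptidoglycan, lay close to 0. The 4 tested members had means between -0.11 and 0.0621, and their values on single arrays lay between -0.34 and 0.27. On replicate 1 PGRP-SC1a alone was above background, so the ratios of the others there are not measured differences. PGRP-SC1a, an amidase of the gut, was the one gene measured in all channels. Its spot medians were 1119 in ablated larvae and 876 in control larvae on replicate 1, and 939 in ablated larvae and 891 in control larvae on replicate 2. After normalization the ratios were -0.24 and 0.0261 (mean -0.11 ± 0.19), so the arrays differed in sign. Its near-identical copy PGRP-SC1b was not above background, and RNA of the 2 copies may bind the same probe, so the value is uncertain for either gene alone. Their neighbour PGRP-SC2 stood at 0.00366 and 0.12 (mean 0.0621 ± 0.0827).

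PGRP-LB, a systemic brake on Imd signalling, had 2 probes. The brighter read 0.27 and -0.29 (mean -0.00872 ± 0.39) and the other 0.24 and -0.0492. PGRP-SB1 read 0.27 and -0.34 (mean -0.0355 ± 0.43) and was above background in 1 channel, that of control larvae on replicate 2. For both genes the ablated larvae read higher on replicate 1 and lower on replicate 2, that is, higher in Cy5 on both arrays. Neither gene was above background on replicate 1.

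Among the thioester proteins, complement-like proteins of the haemolymph, Tep4 was above background and read 0.29 and -0.19 (mean 0.0490 ± 0.34). Its spot median on replicate 2 was 533 in ablated larvae (local background 82) and 625 in control larvae (local background 126). Tep1 failed the 2 SD rule. Its spot median on replicate 1 was 365 in ablated larvae (local background 141, SD 1050) and 549 in control larvae (local background 174, SD 2066). Under the rule on the background median alone, chosen after the data were seen, Tep1, Tep2, GNBP2 and PGRP-LE were tested as well. Tep1 then gave -0.75 and -0.62 (mean -0.69 ± 0.0930), although on replicate 2 its spot lay at 0.750 (ablated) and 1.19 (control) times the background. Tep2 (mean -0.21) and GNBP2 (mean -0.20) also read lower on both arrays, and PGRP-LE read -0.30 and 0.0194. The Tep2 spot on replicate 2 lay at 0.717 (ablated) and 0.814 (control) times the background, so that array gave no signal for it. GNBP2 passed the median rule in 1 channel, that of control larvae on replicate 1, at 2.21 times the background.

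Tsf1, a secreted transferrin whose mRNA is known to rise on infection, had the highest mean of the 16. Its spot median on replicate 1 was 177 in ablated larvae (local background 11) and 85 in control larvae (local background 18). On replicate 2 it was 1034 in ablated larvae (local background 95) and 402 in control larvae (local background 120). The ablated channel was the brighter one under either dye. The ratios were 0.41 and 1.15, a mean of 0.78 ± 0.53 (SD, n = 2; unadjusted p = 0.0880, limma adjusted p = 0.996), or 1.72 times the control level. With the sign of replicate 2 turned the mean was -0.37. A further probe of Tsf1 lay below the local background in all 4 channels, at 0.29 and 0.0292.

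The measurement error within an array was taken from 12 probes printed 17 times each, whose copies had a median SD of the log2 ratio of 0.18 on replicate 1 and 0.19 on replicate 2. The means of spz, PGRP-LC, imd, Tl, key, IKKbeta and Tsf1 were larger in size than both values, which are SDs of single spots and not of means over arrays. That of PGRP-SA lay between them, and those of the other 8 genes were smaller than both. The SDs come from other probes, so the error at the members' own spots was not measured. Neither group was above background for imd, Tl and key on replicate 2 or for IKKbeta on replicate 1. The spread between arrays is the error that the test uses, and with it no gene was called.

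The authors' deposited table gives log2 ratios of background-subtracted medians, without centring. Their median over all spots with a value was 0.487 on replicate 1 and -0.115 on replicate 2, so a sign there is not relative to the typical spot. In the authors' deposited table spz read -0.53 and -1.28, PGRP-LC -0.65 and -1.14, IKKbeta -0.59 and -2.56, and Tsf1 1.32 and 1.74. All of these have the sign given above on both arrays. For 6 of the 16 genes the authors' deposited table has a sign opposite to that above on at least 1 array. On replicate 1 these are PGRP-SA at 0.56, PGRP-SC1a at 0.39, pirk at 0.43 and Tl at 0.15 in the authors' deposited table. Of these, PGRP-SC1a, pirk and Tl lie below the median of that array. On replicate 2 they are imd at 0.51, Tl at 0.18 and Rel at -0.62 in the authors' deposited table, so the uncentred ratio of Tl is positive on both arrays there. For these 3 genes both channels of replicate 2 lay below the local background, so their values on that array are ratios of 2 negative differences. The same was so for 45.0% of the gene spots with a value in the authors' deposited table on replicate 2 and for 15.0% on replicate 1.

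Other genes of both pathways gave no common direction. Of 28 other Toll pathway genes 13 were tested, with 3 higher and 4 lower on both arrays, 0 called and a median of -0.11. The smallest unadjusted p values were those of the Toll-family receptors Tollo at 0.67 ± 0.0144 and Toll-9 at 0.95 ± 0.47 (SD, n = 2 each), both higher in ablated larvae. Turning replicate 2 gave means of 0.0102 for Tollo and 0.34 for Toll-9. A further receptor of that family, 18w, named after its values were seen, read -2.84 on replicate 1 and 2.23 on replicate 2. It averaged -2.53 with the sign of replicate 2 turned, where it was called (limma adjusted p = 9.24e-12). Of 21 other Imd pathway genes 9 were tested, with 3 higher and 2 lower on both arrays, 0 called and a median of 0.0979. Tab2, which with Tak1 activates the IKK complex, stood at -0.56 ± 0.17 and nub, a transcription factor that regulates immune genes, at 0.34 ± 0.28, or -0.12 and 0.20 with the sign of replicate 2 turned. Of 9 further recognition genes 4 were tested, with 3 lower and 0 higher on both arrays and a median of -0.29, among them Sr-CI at -0.34 ± 0.0924 and Mcr at -0.29 ± 0.0939, or 0.0654 and 0.0664 with the sign of replicate 2 turned. Antimicrobial peptides, the outputs of both pathways, had 20 tested genes of 34, with 9 higher (45%, against 24.4% of all tested genes) and 2 lower (10%, against 22.5%) on both arrays, 0 called and a median of 0.18. Among those counted as higher, AttC, Drs, AttD and Drsl1 were above background in ablated larvae on 1 array and in control larvae on 0. They were therefore tested only through the group in which they read higher, and Drsl1 read just 0.0035 and 0.0143. BomT3 stood at -1.17 ± 0.25, with ablated larvae not above background, and Mtk at 0.54 ± 0.0361. Turned in the same way, BomT3 averaged 0.18 and Mtk 0.0255. The cecropin gene CecA1 and the attacin gene AttB, named after their values were seen, were called with the sign turned, at 1.39 (limma adjusted p = 0.000872) and 1.25 (limma adjusted p = 0.00393).

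The groups also differ in chromosome 3, since TM6 is a balancer of that chromosome and only the controls carry it. Of the 16 tested immune genes 7 lie on chromosome 3 and 9 elsewhere. Split this way, after the values were seen, 4 of the 7 on chromosome 3 read lower on both arrays (spz, PGRP-LC, Tl and IKKbeta) and 1 of the 9 elsewhere (imd). Among all tested genes 23.4% of 2579 on chromosome 3 and 21.6% of 3132 elsewhere did so. Since every control larva carries the balancer and no driver or eiger transgene, genotype and ablation cannot be told apart for any gene, on chromosome 3 or elsewhere.

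Tissue markers of the whole larva were measured in part. Of 46 marker genes on 5 lists, 30 were tested, including 9 of 9 for fat body, 6 of 7 for muscle, 6 of 11 for midgut and 5 of 7 for the wing disc. Blood cell markers had 4 of 12, and Hml, NimC1, He, crq, vkg, PPO1, PPO2 and srp were not above background in any channel. The summed normalized intensity of the 4 was 4546 and 5978 in ablated larvae and 5122 and 9900 in control larvae on replicates 1 and 2. The sum over the 9 fat body markers was 14534 and 25936 in ablated larvae and 19173 and 20464 in control larvae. The brightest were Col4a1 at -0.65 ± 0.51 and Sr-CI for blood cells, and Lsp1beta at 0.11 ± 0.63 and Lsp1alpha at -0.48 ± 0.27 for fat body. For muscle they were wupA at 0.20 ± 0.36 and Mhc at -0.0448 ± 1.80, for midgut Jon65Aiv at 0.0170 ± 0.00432 and Amy-p at -0.16 ± 0.44, and for the wing disc nub and rn at -0.30 ± 0.91. On both arrays 1 of the 4 tested blood cell markers read higher and 2 lower, and of the 9 fat body markers 2 and 3. Of the 6 tested midgut markers 4 read higher and 0 lower. Muscle had 1 and 2 of 6, and the wing disc 2 and 0 of 5. Of all tested genes 24.4% read higher and 22.5% lower. Among these markers, turning replicate 2 gave a mean of 0.36 for Col4a1, 0.64 for rn and -1.27 for Mhc, of which Mhc was called (limma adjusted p = 0.00299). The part of tissue composition in the values of the immune genes was not tested.

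**Figure D4:**
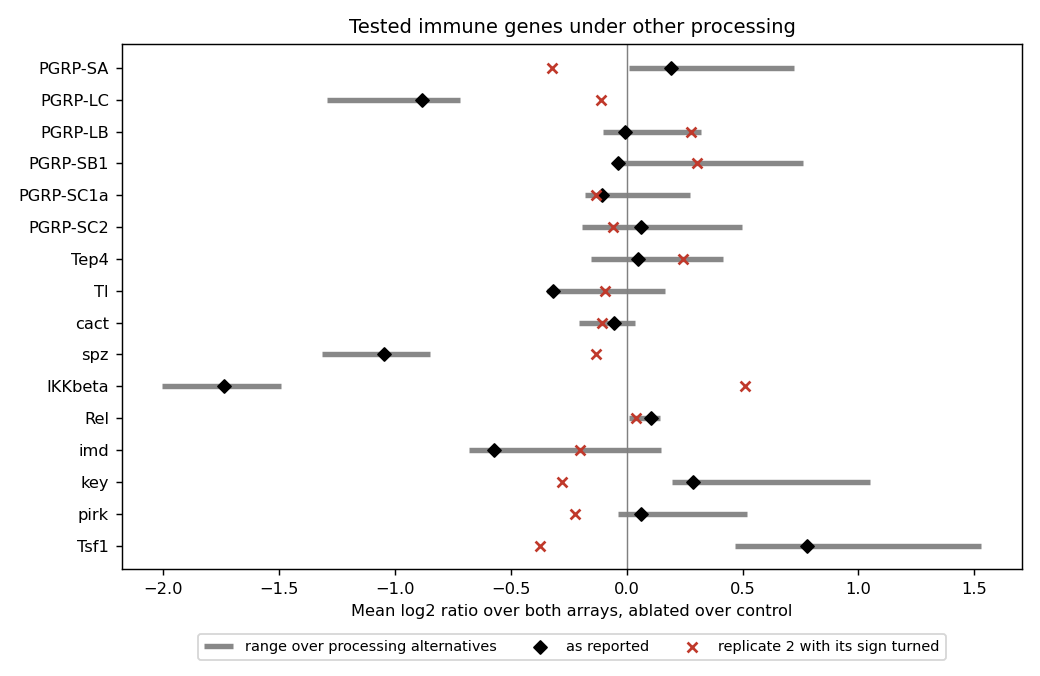
Mean log2 ratio of ablated to control larvae of the 16 tested genes as reported (diamonds), its range over the processing alternatives run on both arrays with the labelled sign (grey bars, left-out arrays not included) and the mean with the sign of replicate 2 turned (crosses). The bars of spz, PGRP-LC and IKKbeta stay below 0 and those of Tsf1, key, PGRP-SA and Rel above 0, while the bars of the other 9 genes cross 0.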

How the data were processed

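Gene expression was measured on 2 dye-swapped two-colour arrays of whole female larvae. Per the file headers, spots were quantified with GenePix Pro 7.1.25; the deposited intensity values are spot medians and local background medians and SDs at 635 nm (Cy5) and 532 nm (Cy3), and the percent of saturated pixels, also deposited, was 0 at every member's spot. The authors deposited log2 ratios too; these follow the log2 ratio of background-subtracted medians at 635 over 532 nm (r = 0.999 on replicate 1, -0.999 on replicate 2), so both run as ablated over control. Other steps of the authors are not given in the sources used here.

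The labels' treatment text states the temperatures for GAL80 the opposite way from the series' design, which was followed. Probe names were matched to genes by locus tag (12688 probes) or synonym (1218); 687 kept the file's name. The reference table names Release 6, and the arrays' build is not given, so no coordinates are printed. With limma 3.58.1 in R 4.3.3, backgrounds were corrected by normexp (offset 50), ratios loess-normalized with control spots at weight 0, replicate 2 turned, and genes tested (lmFit, eBayes, two-sided, Benjamini-Hochberg) through their brightest probe. Summed intensities used channel values after Aquantile. The test was also run on simulated arrays drawn independently of each other. The real arrays correlated negatively, so that run does not check the test in their setting. The number of arrays limits the precision.

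The members and lists were chosen with earlier results of these data known. Named genes are every member, the 2 genes of smallest p in each other pathway list, and the 2 brightest of each marker list; 18w, CecA1, AttB and the split by chromosome were added after values were seen. Alternatives were plain or no background subtraction, median centring, print-tip loess, no or a stricter filter, the authors' ratios, the mean over probes, each array left out and a separate-channel model. Added after seeing the data were the turned sign and a background rule on the median alone.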

Additional observations from a re-analysis of the deposited data

How the results depend on the processing

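No member was called under any alternative run, and 0 genes in all except with the sign of replicate 2 turned (514 called). The separate-channel model with the array as a block gave 0 calls, and an unadjusted p under 0.05 for 168 genes, 4 of them members. As reported, 145 genes had one, 3 of them members. The median of the tested members, -0.0221 as reported, was 0.0669 with plain subtraction, 0.0226 without background correction, 0.0997 with median centring, -0.13 with print-tip loess, 0.25 in the authors' deposited table, -0.11 with the sign turned and -0.0803 with the background rule on the median alone. On single arrays it was -0.15 without replicate 2 and -0.0832 without replicate 1. Median centring and the authors' deposited table also moved the median of all genes, to 0.14 and 0.31. With the stricter filter PGRP-SC1a alone was left, with a median of -0.11 and 0 members higher or lower on both arrays. Members higher on both arrays numbered 7 with median centring and in the authors' deposited table and 1 with print-tip loess, against 4 as reported. Over all genes these were 2066 of 5971 with median centring, 2096 of 5466 in the authors' deposited table and 1448 of 5971 with print-tip loess. Members lower on both arrays numbered 11 of 32 without a filter, 8 of 20 with the rule on the median alone and 3 in the authors' deposited table, against 5. In the same order 3052 of 13136, 1852 of 7833 and 445 of 5466 of all genes were lower on both arrays.

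The means of spz, PGRP-LC, IKKbeta, Tsf1, key, PGRP-SA and Rel kept their sign under every alternative run on both arrays with the labelled sign in which they could be tested. Other signs changed, all for uncalled genes. In the authors' deposited table PGRP-SB1 gave 0.22, PGRP-SC1a 0.27, PGRP-LB 0.32, imd 0.15 and Tl 0.17. With median centring PGRP-LB gave 0.11, PGRP-SC1a 0.0870 and cact 0.00813. Without background correction cact gave 0.0342, PGRP-LB 0.0328 and PGRP-SB1 0.21, and with plain subtraction PGRP-SB1 gave 0.76. With print-tip loess Tep4 gave -0.15, pirk -0.0372, PGRP-SC2 -0.19 and PGRP-SB1 0.0314. With the mean over probes PGRP-LB gave 0.0433. With the sign of replicate 2 turned IKKbeta gave 0.51, Tsf1 -0.37, key -0.28, pirk -0.22, PGRP-SC2 -0.0585, PGRP-SB1 0.31, PGRP-SA -0.32 and PGRP-LB 0.28. The cause of these changes was not tested, except that the authors' value of imd on replicate 2, the array where its sign differs, is a ratio of 2 negative differences. With 1 array left out there is no test and no count over both arrays. Weak signal limits most values: 1 of 16 members was above background in all 4 channels, against 1238 of 5971 tested genes.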
